A study of Macaca fascicularis with 16 samples.

Results

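Tibolone was compared with conjugated equine estrogens (CEE) plus medroxyprogesterone acetate (MPA) in the mammary tissue of female cynomolgus macaques, over 8 of the 16 arrays of a study of hormone replacement. All 16 animals were postmenopausal and ovariectomized, and each gave 1 array. Tibolone was given to 4 animals at 0.2 mg/kg, and 4 animals had CEE at 0.042 mg/kg together with MPA at 0.167 mg/kg (CEE+MPA). The doses differ and the duration of treatment is not given in the sources used here, so the comparison is between these regimens and not between the compounds at matched doses. The other 8 arrays were 4 untreated controls and 4 animals on CEE alone at 0.042 mg/kg, and their levels are given beside the comparison where they help to place it. Of 52865 probe sets on the Affymetrix rhesus macaque array, the 28716 that exceeded a signal of 60.2, the median of the table, on at least 4 of the 16 arrays were tested. Affymetrix control probe sets were left out. The tested probe sets held 10455 named genes, each read from its probe set with the highest mean.

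Tibolone is a synthetic steroid that tissues convert to estrogenic metabolites and to a keto isomer with progestogenic and androgenic activity. MPA is a synthetic progestin that also binds the glucocorticoid receptor. In the mammary gland estrogen acts on the ductal epithelium and induces the progesterone receptor, and progesterone, together with prolactin acting through STAT5, drives alveolar growth and secretory differentiation, partly through paracrine ligands such as RANKL and the Wnts.

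The 8 arrays carried signals of mammary epithelium. CSN2, which encodes beta-casein, lay between 11900 and 17500, EPCAM between 963 and 3020, KRT8 between 809 and 1440, and KRT18 between 380 and 958. LALBA, the milk protein alpha-lactalbumin, ranged from 106 to 23900. Signals of skeletal muscle, a tissue beside the gland, were uneven. The mean of 19 skeletal muscle markers, each centred over the 16 arrays on the log2 scale, was 2.07 on tibolone replicate 2, 1.38 on tibolone replicate 3 and 1.12 on CEE+MPA replicate 1, and between -0.81 and 0.01 on the other 5 arrays. Adipocyte markers, averaged in the same way over 23 genes, ran from -0.77 to 0.89 with tibolone and from -0.76 to 0.17 with CEE+MPA. The bacterial spike-in transcript dap divided the CEE+MPA arrays into a pair at 7.13 and 7.23 and a pair at 8.46 and 8.52 on the log2 scale, with all 4 tibolone arrays between 7.70 and 7.91. The log2 ratio of 3 prime to 5 prime GAPDH signal, a measure of RNA integrity and labelling, was 0.11 to 0.93 with tibolone and 0.09 to 0.83 with CEE+MPA. In bulk tissue, fewer cells of a type and less RNA per cell cannot be told apart.

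With tibolone, 7 of 17 genes of the insulin-like growth factor (IGF) axis, 9 of 26 fibroblast and matrix markers, 7 of 12 smooth muscle markers and 7 of 25 estrogen receptor targets were higher than with CEE+MPA, and none of these lists held a lower call. EGF, DLK1 and the STAT5 and ELF5 genes of the alveolar program were lower. In all, 416 of the 10455 genes were higher with tibolone (3.98%) and 352 lower (3.37%), 7.35% in all, at a Benjamini-Hochberg adjusted p under 0.05 in 1 limma model over the 16 arrays. The median size of these 768 differences was 0.81 on the log2 scale, with 256 above 1 and 21 above 2. Over all tested genes the median difference was 0.01. Signals did not overlap between the groups in 661 of the 768 genes. Over all 10455 genes, 813 (7.78%) had every tibolone array above every CEE+MPA array and 735 (7.03%) every one below. Counted as probe sets, 1086 were higher (3.78%) and 734 lower (2.56%), 1820 of 28716 in all (6.34%). At an unadjusted p under 0.05 there were 7203, where 1436 would fall by chance. The share of these probe sets that were higher with tibolone was 59.7%, and it depended on the scaling, being 52.3% after quantile normalization and 38.1% after centring each array on its median. With only the brighter probe sets, above the 75th percentile, it was 48.6%.

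The number of calls depended on single arrays. It was 209 probe sets without tibolone replicate 2, 295 without tibolone replicate 3, and 3333 without tibolone replicate 4. Leaving out CEE+MPA replicate 1, 2, 3 or 4 gave 723, 843, 413 or 1040, and leaving out tibolone replicate 1 gave 1393. When the 3 arrays with high skeletal muscle signal were left out together, 2 tibolone and 3 CEE+MPA arrays remained, and 5 probe sets passed, all higher, with 3050 at an unadjusted p under 0.05. All 768 genes kept their direction without these 3 arrays, and 1 of them still passed. In the 661 genes whose groups did not overlap, leaving arrays out cannot turn the direction. The kept direction is therefore a description and adds no support. Of the 84 genes that passed and were chosen for description by rule, 17 still passed without tibolone replicate 2, 20 without tibolone replicate 3, 26 without CEE+MPA replicate 3 and 81 without tibolone replicate 4. The part of muscle, adipocyte and spike-in differences in the calls was not tested beyond these alternatives. The list counts moved likewise. Without tibolone replicate 2, the calls fell to 3 in the IGF axis, 2 among fibroblast and matrix markers, 3 among smooth muscle markers, 2 in the TGF-beta family and 0 among estrogen receptor targets. Within the high spike-in set alone, 4 tibolone and 2 CEE+MPA arrays, the same 5 lists gave 3, 9, 3, 2 and 3. In limma none of the 32 lists held a call without the 3 arrays with high skeletal muscle signal. Tibolone replicate 4 lay nearest to the CEE+MPA group. Of the 1820 called probe sets its signal was closer to the CEE+MPA mean in 1042 (57.3%), against 472 for tibolone replicate 1 (25.9%), 132 for replicate 2 (7.25%) and 174 for replicate 3 (9.56%).

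**Figure D1:**
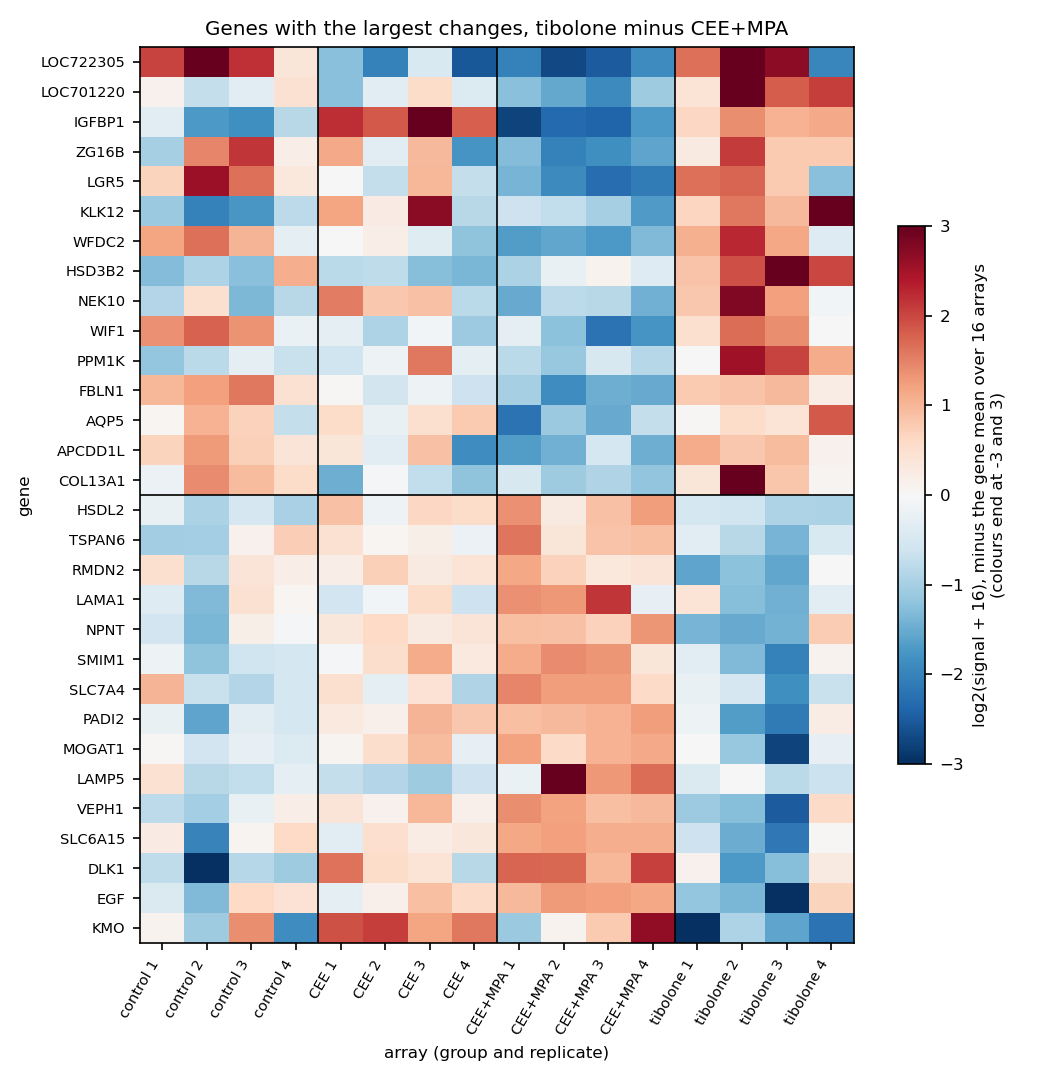
Each row is 1 of the 15 genes with the largest rise (top) or the 15 with the largest fall (bottom) with tibolone against CEE+MPA, and each column is 1 of the 16 arrays. Colour gives log2(signal + 16) minus the gene's mean over the 16 arrays, from blue (lower) to red (higher). Tibolone replicate 4 is paler than the other tibolone arrays, or of the opposite colour, in many of the rows, among them LOC722305, LGR5, NPNT and EGF.

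Of 25 estrogen receptor targets tested, 7 passed, all higher, with a median of 0.28 beside 0.01 over all tested genes. GREB1, an estrogen-induced cofactor of the estrogen receptor, had signals of 209, 222, 150 and 150 on the tibolone arrays and 69.9, 97.7, 57.8 and 43.1 on the CEE+MPA arrays. The groups did not overlap, and GREB1 was higher by 1.28 ± 0.24 on the log2 scale (± SE, limma, adjusted p = 0.013). Its mean was 29.1 in controls and 394 with CEE alone, so that the order ran from control through CEE+MPA and tibolone to CEE. SUSD3, an estrogen-responsive membrane protein, read 570, 1030, 929 and 356 with tibolone and 178, 247, 227 and 167 with CEE+MPA, again without overlap (1.64 ± 0.39, adjusted p = 0.0294). CXCL12, a chemokine of stromal cells, averaged 1060 ± 417 (SD, n = 4) with tibolone and 449 ± 145 with CEE+MPA (adjusted p = 0.0223), and with means of 593 with CEE and 1620 in controls it lay under the untreated mean in every treated group. TPBG, an oncofetal membrane glycoprotein, averaged 862 ± 200 against 459 ± 35.8 (adjusted p = 0.0273), with 996 in controls and 612 with CEE. CXCL12 and TPBG were thus lower with CEE than in controls. The remaining 3 of the 7, chosen like other list members beyond the 4 with the smallest p after their values were seen, were IGFBP4, RERG, a growth-inhibitory small GTPase, and BCAS1, at 0.91, 0.97 and 0.85. PGR, the progesterone receptor and a classic estrogen target, read 59.1, 179, 56.6 and 5.8 with tibolone and 11.7, 27.5, 8.75 and 22.6 with CEE+MPA. Tibolone replicate 4 had the lowest PGR signal of the 8 arrays, and the difference of 1.08 ± 0.48 did not pass (adjusted p = 0.175). XBP1, CA12 and AREG were at -0.09, -0.28 and -0.45, and none of them passed.

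Of 13 receptors and coregulators 1 passed, a share near the 7.35% of all genes. ESR2, which encodes estrogen receptor beta, averaged 105 ± 28.5 with tibolone and 63 ± 7.83 with CEE+MPA (0.59 ± 0.18, adjusted p = 0.061). ESR1 was not tested because its signals were under the filter, at 31.4 to 55.7 with tibolone and 15.7 to 49.8 with CEE+MPA. NR3C1, the glucocorticoid receptor, was at -0.67 ± 0.22 (adjusted p = 0.071) in 1 of its 3 probe sets, with the other pair at -0.12 and 0.25. FOXA1, a pioneer factor of luminal cells that opens chromatin for steroid receptors, read 1050, 2480, 1850 and 818 with tibolone against 438, 372, 453 and 606 with CEE+MPA. Every tibolone array was above every CEE+MPA array, at 1.58 ± 0.43 (adjusted p = 0.0428), and FOXA1 was the member that passed.

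Of 10 tested genes of steroid synthesis and metabolism, 2 were higher. HSD3B2, a steroid dehydrogenase and isomerase best known from adrenal and gonads, read 65.7, 155, 417 and 165 with tibolone and 7.24, 22.5, 32.3 and 18.1 with CEE+MPA. It was near the floor of the array in controls, CEE and CEE+MPA, apart from 1 control at 79.6. HSD3B2 thus entered the test through the tibolone arrays, the group where it is high, so that its call (2.38 ± 0.50, adjusted p = 0.0199) is a description and adds no support to the count. Signals this low are compressed by the offset of 16 that is added before the logarithm. CYP1B1, which hydroxylates estrogens, rose by 1.05 ± 0.26 (adjusted p = 0.0302). HSD17B2, which inactivates estradiol to estrone, was at 371 on tibolone replicate 1 and 126 to 147 on the other tibolone arrays, against 316 to 589 with CEE+MPA (-1.08 ± 0.35, adjusted p = 0.0736).

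In the IGF axis 7 of 17 tested members passed, all higher, and the median over the 17 was 0.91. IGFBP1, which binds IGFs in plasma and tissue, read 218, 384, 300 and 322 with tibolone and 6.47, 14.2, 12.8 and 30.2 with CEE+MPA. This was 10.3-fold on the log2(signal + 16) scale (3.36 ± 0.43, adjusted p = 0.00247), with no overlap. Its mean was 57.8 in controls and 1020 with CEE alone, so the CEE+MPA mean lay below the untreated mean and the tibolone mean above it. Neither difference from control passed in limma, at -1.12 with CEE+MPA (adjusted p = 0.122) and 2.23 with tibolone (adjusted p = 0.124). The CEE+MPA and control arrays overlapped. IGFBP3, the main carrier of circulating IGF, averaged 4630 ± 1990 with tibolone and 1230 ± 692 with CEE+MPA (1.96 ± 0.44, adjusted p = 0.0229). IGFBP3 was 3500 in controls and 3390 with CEE, so the CEE+MPA group was the low one. IGFBP6, a binding protein with a preference for IGF2, read 8960, 10800, 8730 and 6730 against 6590, 2600, 3740 and 3730, and CEE+MPA replicate 1 came just below the lowest tibolone array (1.14 ± 0.24, adjusted p = 0.0192). IGFBP4 also rose (0.91 ± 0.23, adjusted p = 0.0334).

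Among the receptors and signal transducers of the pathway, IRS1, the docking protein of the insulin and IGF receptors, read 350, 678, 698 and 323 with tibolone and 143, 176, 144 and 166 with CEE+MPA. It was higher by 1.53 ± 0.27 (adjusted p = 0.00963), and both of its probe sets passed. IGF1R itself rose by 0.69 ± 0.18 (adjusted p = 0.0391). HTRA1, a secreted serine protease that cleaves IGF binding proteins and matrix, read 3360, 3770, 3630 and 3110 against 1830, 1740, 1880 and 1520 (0.99 ± 0.15, adjusted p = 0.00435). HTRA1 was highest in controls, at 5060, and the 4 arrays of each group lay close together. The ligands did not pass, with IGF1 at 0.95 ± 0.32 (adjusted p = 0.0814) and IGF2 at 0.07 ± 0.15 (adjusted p = 0.81). IGFBP2, IGFBP5 and IGFBP7 did not pass either, at -0.35, 0.69 and 0.49. IGFBP1, HTRA1 and IRS1 passed when any of the 8 arrays was left out, with adjusted p up to 0.013, 0.0206 and 0.0415. IGFBP6 was at 0.0718 without tibolone replicate 2.

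**Figure D2:**
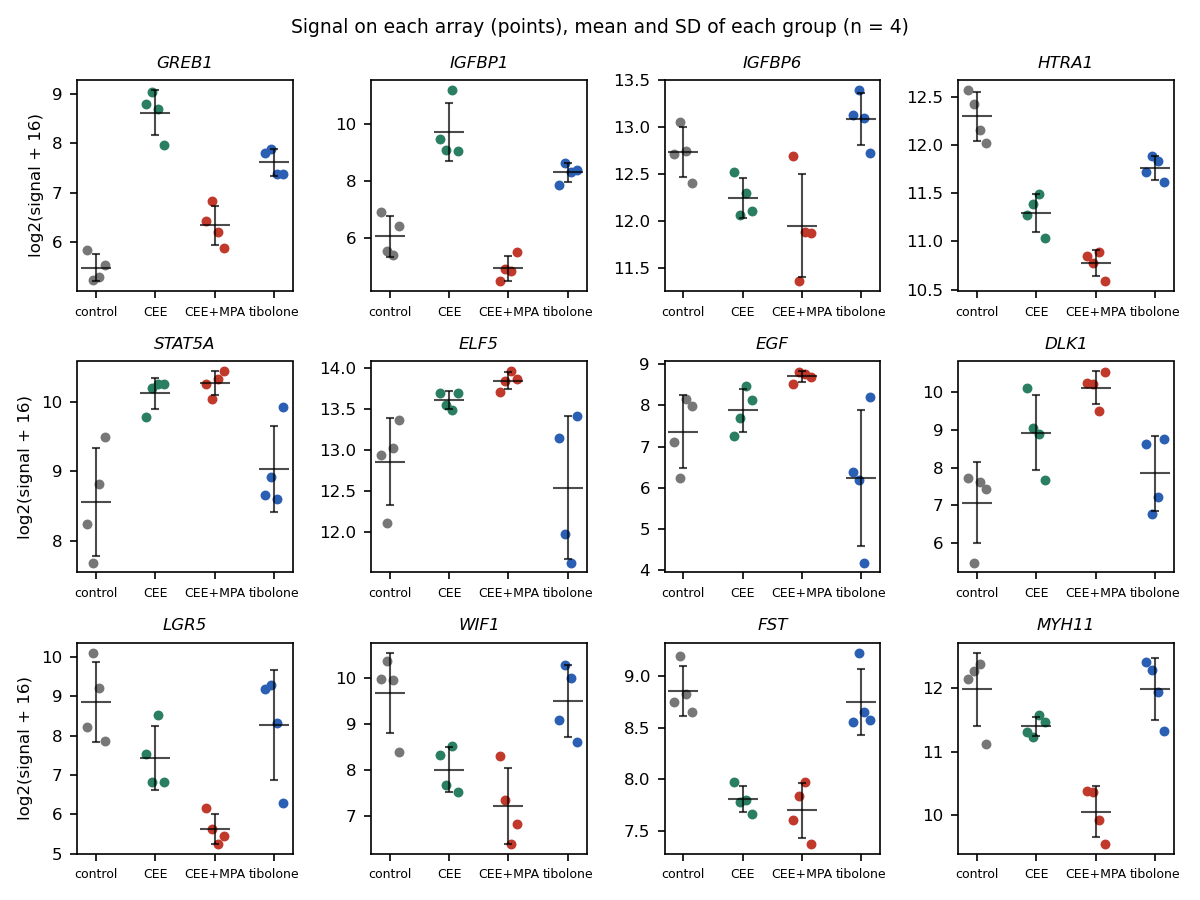
Points are log2(signal + 16) on each array of the 4 groups, and lines give the mean and SD (n = 4) for 12 genes. GREB1 and IGFBP1 with tibolone lie between CEE+MPA and CEE, HTRA1 and WIF1 lie between CEE+MPA and control, and for STAT5A, ELF5 and EGF the CEE+MPA points lie close together above spread tibolone points.

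In the Wnt pathway, the receptor LGR5 and 3 inhibitors were higher with tibolone and WNT5A was lower. LGR5, a receptor for R-spondins that marks epithelial stem cells, read 567, 605, 305 and 61.8 with tibolone and 55.3, 33.8, 22.1 and 27.8 with CEE+MPA. Tibolone replicate 4 was only just above the highest CEE+MPA array, and the difference was 2.64 ± 0.61 (adjusted p = 0.0248, and 0.0849 without tibolone replicate 2). WIF1, a secreted protein that binds Wnts and blocks them, read 527, 1220, 1010 and 371 against 301, 148, 67.6 and 97.4 (2.27 ± 0.48, adjusted p = 0.0199). SFRP2, a secreted Frizzled-related protein of fibroblasts, averaged 1770 ± 286 against 878 ± 127 (0.99 ± 0.21, adjusted p = 0.0199), and NKD2, an intracellular Wnt antagonist, rose by 0.69 ± 0.19. LGR5, WIF1 and SFRP2 were higher still in controls, at 540, 899 and 2150. RSPO3, an R-spondin ligand, was near the filter, at 55.8 to 137 with tibolone and 28.6 to 49.6 with CEE+MPA (adjusted p = 0.0448). It also reached the filter through the tibolone arrays, with 3 arrays above it elsewhere. Its call is thus a description and adds no support to the count of the pathway.

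WNT5A went the other way. This gene of a non-canonical Wnt averaged 634 ± 252 with tibolone and 1950 ± 1530 with CEE+MPA (-1.40 ± 0.40, adjusted p = 0.0477). Its CEE+MPA signals were 1640, 1050, 927 and 4200, and the lowest of them was under the 992 of tibolone replicate 1. RSPO1, an R-spondin of the mammary epithelium, read 268, 183, 111 and 847 with tibolone and 956, 3090, 1450 and 270 with CEE+MPA. The groups overlapped at tibolone replicate 4 and CEE+MPA replicate 4, and RSPO1 did not pass (-1.92 ± 0.58, adjusted p = 0.0613). WNT4, a paracrine mediator of progesterone, was at -0.28 ± 0.45 (adjusted p = 0.732), and TNFSF11, which encodes RANKL, did not reach the filter. In all, 5 of 27 tested members were higher, with RSPO3 among them, and 1 lower, with a median of 0.36.

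Activin and follistatin genes rose together. INHBA, the subunit of activin A, read 230, 338, 197 and 146 with tibolone and 91.3, 28.6, 82.2 and 59 with CEE+MPA (1.60 ± 0.32, adjusted p = 0.0157). FST, which encodes follistatin, the antagonist that binds activin, read 360, 585, 386 and 366 against 179, 213, 235 and 149 (1.06 ± 0.18, adjusted p = 0.00767). Neither overlapped, and both were near their control means of 303 and 453. ID3, a target of bone morphogenetic proteins, passed narrowly (0.89 ± 0.25, adjusted p = 0.0487) with tibolone replicate 4 at 1050, inside the CEE+MPA range of 884 to 1160. With HTRA1, these were the 4 of 22 tested members of the TGF-beta family list that passed, all higher, and the median was 0.54.

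The prolactin and STAT5 axis was divided. STAT5A, the transcription factor of alveolar differentiation, read 388, 468, 374 and 957 with tibolone and 1200, 1030, 1270 and 1370 with CEE+MPA. Tibolone replicate 4 stood just below the CEE+MPA arrays, and STAT5A fell by 1.24 ± 0.33 (adjusted p = 0.0403). STAT5B read 1460, 1270, 1270 and 3320 against 2860, 3850, 4350 and 3880, so tibolone replicate 4 lay inside the CEE+MPA range (-1.13 ± 0.27, adjusted p = 0.0278). The other 3 probe sets of STAT5B lay at -0.83, -0.86 and -1.02 and did not pass. ELF5, a luminal progenitor factor induced by progesterone and prolactin, read 9030, 4000, 3130 and 10900 against 13400, 14700, 16000 and 14900 (-1.31 ± 0.33, adjusted p = 0.0352), and its other probe set was at -1.97 (adjusted p = 0.0242). The 3 genes had means of 403, 1510 and 7790 in controls and of 1100, 3280 and 12500 with CEE, so that with tibolone they lay nearer to the untreated level.

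Within the same axis, JAK2, the kinase that phosphorylates STAT5, rose by 0.92 ± 0.22 (adjusted p = 0.0312) in 1 of 3 probe sets. SOCS1, a feedback inhibitor of JAK signalling, read 362, 399, 443 and 274 with tibolone and 152, 168, 246 and 149 with CEE+MPA (0.99 ± 0.18, adjusted p = 0.0119). PRLR, the prolactin receptor, was at -0.94 ± 0.42 (adjusted p = 0.174), and CISH, a direct STAT5 target, at -0.94 ± 0.39 (adjusted p = 0.148), both with overlapping arrays. Of 13 members tested, 2 were higher and 3 lower. STAT5A passed in 1 of 8 fits with an array left out, and STAT5B and ELF5 in 2 of 8. Their adjusted p values reached 0.114 without tibolone replicate 3 for STAT5A, and 0.0922 and 0.112 without tibolone replicate 2 for STAT5B and ELF5.

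Of 19 progesterone receptor targets, the same 3 genes fell and 2 rose. ZBTB16, a transcription factor induced by progestins and glucocorticoids, averaged 1180 ± 533 with tibolone and 477 ± 97.2 with CEE+MPA (adjusted p = 0.0499), with controls at 953. TSPAN8, a tetraspanin, rose by 1.10 ± 0.27. FKBP5, a target of the progesterone and glucocorticoid receptors, did not reach the filter.

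Milk genes varied widely between animals of the same group. LALBA read 23900, 16600, 799 and 106 with tibolone and 20100, 2950, 11400 and 20200 with CEE+MPA, so both groups held arrays far apart (-2.11 ± 1.31, adjusted p = 0.331). CSN2 was at -0.08 ± 0.14 (adjusted p = 0.769) near the top of the signal range, and BTN1A1, a milk fat globule protein, at -1.85 ± 0.85 (adjusted p = 0.186). CLDN8, a tight junction protein, read 1610, 1130, 1100 and 1010 against 2560, 2600, 3020 and 4450 (-1.35 ± 0.31, adjusted p = 0.0249). MUC15, a membrane mucin of the milk fat globule, fell by 1.34 ± 0.37 (adjusted p = 0.0431). AQP5, a water channel of secretory and apocrine epithelium, read 463, 675, 610 and 1660 with tibolone and 85.8, 201, 149 and 272 with CEE+MPA (2.09 ± 0.42, adjusted p = 0.0173). AQP5 averaged 609 in controls and 623 with CEE, so the CEE+MPA group was the low one. In all 1 of 24 tested members was higher and 2 lower, beside 3.98% and 3.37% of all genes, with a median of -0.42.

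EGF gave 1 of the largest falls. Its signals were 67.7, 56.5, 2.07 and 280 with tibolone and 352, 435, 421 and 400 with CEE+MPA, which do not overlap (-2.46 ± 0.61, adjusted p = 0.032). The 4 CEE+MPA arrays were close together and tibolone replicate 3 was near the floor. EGF was the 1 member that passed of 11 EGF family ligands and receptors, a share near the 7.35% of all genes. DLK1, a Notch-related membrane protein of preadipocytes and progenitor cells, read 378, 93.3, 133 and 418 against 1200, 1180, 708 and 1470 (-2.28 ± 0.57, adjusted p = 0.0335), with means of 141 in controls and 566 with CEE. Both missed the threshold without tibolone replicate 2, at adjusted p of 0.0866 for EGF and 0.108 for DLK1.

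KMO, a kynurenine hydroxylase of tryptophan breakdown, had the largest fall, -2.56 ± 0.73 (adjusted p = 0.0484), but its arrays overlapped, at 63.2 to 330 with tibolone and 287 to 4150 with CEE+MPA. HSDL2, a peroxisomal protein related to hydroxysteroid dehydrogenases, gave a smaller and tighter difference, with 961, 918, 725 and 714 against 3600, 1690, 2570 and 3360 (-1.69 ± 0.26, adjusted p = 0.00486). Its second probe set was at -2.27 (adjusted p = 0.00341), and HSDL2 passed when any of the 8 arrays was left out, up to an adjusted p of 0.0202. MOGAT1, an acyltransferase of triglyceride synthesis, read 1890, 856, 264 and 1600 against 4370, 2830, 3900 and 4190 (-2.02 ± 0.44, adjusted p = 0.0223). PADI2, which converts arginine residues to citrulline, averaged 1220 ± 865 against 3890 ± 426 (-1.97 ± 0.43). The amino acid transporter SLC6A15 averaged 84.3 ± 62.9 against 378 ± 19.2 and its relative in transport SLC7A4 168 ± 72.6 against 659 ± 161. NPNT and LAMA1, a ligand of integrins and a laminin chain of basement membrane, were at -1.85 and -1.80, and in both the groups overlapped. VEPH1, LAMP5, SMIM1, RMDN2 and TSPAN6 complete the 15 largest falls, at -2.20, -2.13, -1.94, -1.73 and -1.69.

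The 15 largest rises held genes of varied function. WFDC2, a protease inhibitor of glandular secretions, read 4300, 10000, 4630 and 1580 with tibolone and 636, 687, 613 and 815 with CEE+MPA (2.60 ± 0.48, adjusted p = 0.0116). Its mean was 4270 in controls and 1710 with CEE. WFDC2 was the 1 of 20 secreted defence proteins that passed, beside 7.35% of all genes. SPP1, the phosphoprotein osteopontin, ranged from 458 to 14500 with tibolone and from 125 to 4420 with CEE+MPA and did not pass (2.60 ± 1.06, adjusted p = 0.142). ZG16B, a secreted lectin-like protein, averaged 5090 ± 3170 against 703 ± 164 (2.68 ± 0.66, adjusted p = 0.0316). KLK12, a kallikrein protease, read 180, 359, 230 and 1140 against 65.4, 58.9, 47 and 22.3, with all 3 of its probe sets past the threshold. NEK10, a kinase, rose by 2.33 ± 0.56. COL13A1, a transmembrane collagen, read 138, 983, 194 and 110 against 69.6, 40.6, 47.9 and 36.2 (adjusted p = 0.038). PPM1K, the mitochondrial phosphatase that activates branched-chain amino acid breakdown, read 535, 3230, 2270 and 1180 against 301, 235, 382 and 293 (2.24 ± 0.49, adjusted p = 0.0223). APCDD1L averaged 123 ± 37.1 against 18.9 ± 14. The largest rise, 3.76 (adjusted p = 0.0392), belonged to LOC722305, where tibolone replicate 4 at 79.9 lay inside the CEE+MPA range and the other pair of probe sets pointed the other way, at -0.40 and -0.73. LOC701220 rose by 3.36 ± 0.49 (adjusted p = 0.00399), and both of its probe sets passed.

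In the fibroblast and matrix list and the smooth muscle list, the members that passed were all higher with tibolone. LAMA1 and NPNT, which these lists do not hold, were lower, as given above. FBLN1, the fibulin of basement membranes and elastic fibres, read 2170, 2270, 2450 and 1470 with tibolone and 623, 331, 446 and 431 with CEE+MPA. All 3 of its probe sets passed, at 2.16 ± 0.25 (adjusted p = 0.00143), 2.41 and 1.89, and it passed when any of the 8 arrays was left out. FBLN1 averaged 2730 in controls and 1020 with CEE. COL12A1, a fibril-associated collagen, read 1250, 1550, 1600 and 1460 against 799, 573, 433 and 434 (1.40 ± 0.26, adjusted p = 0.0115). The collagen VI chains COL6A1 and COL6A2 rose by 0.66 ± 0.14 and 0.89 ± 0.19. DPT, OGN, FBLN5, PI16 and SFRP2, genes of matrix organization and of adventitial fibroblasts, were the remaining members that passed, at 1.29, 1.12, 1.15, 1.04 and 0.99. In all, 9 of 26 fibroblast and matrix markers passed, all higher, with a median of 0.42.

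MYH11, the myosin heavy chain of smooth muscle, read 5400, 4960, 3900 and 2540 with tibolone and 1320, 1300, 953 and 728 with CEE+MPA (1.93 ± 0.28, adjusted p = 0.00428). No array overlapped, the control mean was 4230 and the CEE mean 2690, and 3 of 4 probe sets passed. KCNMB1, a potassium channel subunit of vascular smooth muscle, averaged 575 ± 124 against 230 ± 66 (1.28 ± 0.22, adjusted p = 0.00784), and SYNPO2, an actin-binding protein, 297 ± 72.7 against 133 ± 26.6 (1.06 ± 0.18, adjusted p = 0.00732). ACTG2, TAGLN, CNN1 and CALD1, further parts of the contractile apparatus, rose by 1.93, 0.96, 1.27 and 0.50. Of 12 smooth muscle markers 7 passed, all higher, all 12 had a positive difference, and the median was 0.86. Some of these genes are also expressed by myoepithelial cells, and of 15 basal and myoepithelial markers 2 passed, ACTG2 and TRIM29, the latter at 1.41 ± 0.33. Skeletal muscle markers gave 0 limma calls of 19, with 1 at an unadjusted p under 0.05, and a median of 0.65, or -0.07 when the 3 arrays with high skeletal muscle signal were left out. The smooth muscle median without those arrays was 0.86, with 0 of 12 past the threshold in that smaller design. With the skeletal muscle mean as a covariate over all arrays, MYH11, KCNMB1, SYNPO2 and ACTG2, the members chosen by rule, still passed in limma. The part of skeletal muscle in the smooth muscle difference was not tested beyond these alternatives.

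**Figure D3:**
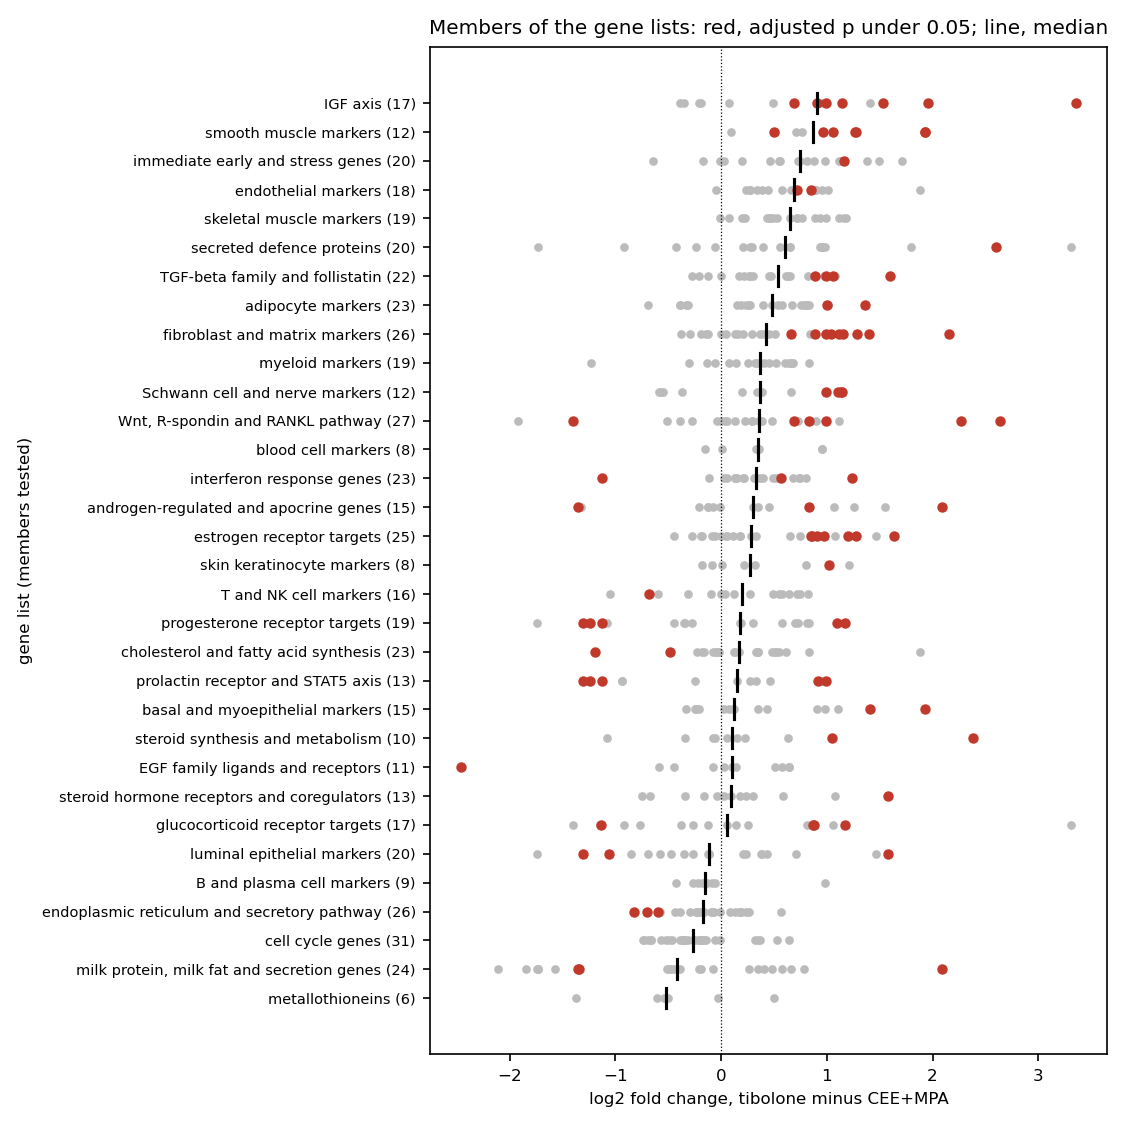
Each point is the log2 fold change, tibolone minus CEE+MPA, of a tested member of 1 of the 32 gene lists, red where the adjusted p was under 0.05, and the black line is the list's median. The IGF axis (median 0.91) and smooth muscle markers (0.86) lie farthest to the right, and milk genes (-0.42) and metallothioneins (-0.52) farthest to the left.

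Other stromal and vascular markers were counted in the same way, and their counts stand beside the 7.35% of all genes called. Of 12 Schwann cell and nerve markers 4 passed, all higher, with a median of 0.36. MAL, a myelin and lymphocyte proteolipid that is also made by epithelia, read 198, 161, 140 and 160 with tibolone and 81, 68.5, 52.1 and 63.9 with CEE+MPA (1.13 ± 0.16, adjusted p = 0.00341). MBP, PRX and L1CAM, genes of myelin and of nerve adhesion, rose by 1.11, 0.99 and 1.14. Among 18 endothelial markers CLDN5, of endothelial tight junctions, and RAMP2, the partner of the adrenomedullin receptor, rose by 0.85 ± 0.24 and 0.72 ± 0.19, and 17 of the 18 had a positive difference (median 0.68). VWF was at 0.90 ± 0.27 (adjusted p = 0.0538) and PECAM1 at 0.34 ± 0.19 (adjusted p = 0.293). Of 23 adipocyte markers 2 passed, a share near that of all genes. These were the adipokines CFD, higher by 1.36 ± 0.36, and RETN, from 98.2 ± 21.1 with CEE+MPA to 212 ± 38.8 with tibolone. CFD passed in 1 of 8 fits with an array left out, and RETN in 5. The list median of 0.48 became -0.10 without the 3 arrays with high skeletal muscle signal.

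Luminal epithelial markers held 1 rise and 2 falls among 20, beside 3.98% of all genes called higher and 3.37% lower. Next to FOXA1 and ELF5 these were PRSS8, a channel-activating protease of epithelia, which read 1750, 831, 649 and 1320 with tibolone and 2060, 2410, 2100 and 2320 with CEE+MPA (-1.06 ± 0.24, adjusted p = 0.0243). The luminal list mean was 0.00 to 0.05 on the CEE+MPA arrays and -0.68 to 0.36 on the tibolone arrays, with replicate 3 lowest and replicate 1 highest. With this mean as a covariate 1282 probe sets were called.

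Androgen-regulated and apocrine genes, 15 tested, gave 2 rises and 1 fall. APOD, a lipocalin of apocrine cells and breast cysts, read 15500, 13700, 12600 and 15000 with tibolone and 9240, 7080, 8600 and 7280 with CEE+MPA (0.83 ± 0.21, adjusted p = 0.036). AQP5 rose and CLDN8 fell, as given above. Of 17 glucocorticoid receptor targets, GLUL, glutamine synthetase, and CRISPLD2, a secreted glucocorticoid-induced protein, rose with ZBTB16, by 0.87 ± 0.22 and 0.88 ± 0.19, while FAM107A fell by 1.14 ± 0.29. The median of this list, 0.06, had no stable sign, being -0.02 after centring each array on its median, -0.37 without the 3 arrays with high skeletal muscle signal and 0.40 within the high spike-in set.

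Immune genes gave scattered calls. KLRD1, a lectin-like receptor of natural killer cells, read 2430, 2110, 1780 and 2130 with tibolone and 3410, 3490, 3570 and 3060 with CEE+MPA (-0.68 ± 0.12, adjusted p = 0.0115). Its other probe sets were at -0.38 and -0.40 and did not pass. KLRD1 was the 1 call among 16 T and natural killer cell markers, beside 7.35% of all genes, and 11 of the 16 had a positive difference. CD14, a monocyte receptor for lipopolysaccharide, was at -1.23 ± 0.36 and just missed (adjusted p = 0.0514), with every tibolone array below every CEE+MPA array. CSF1R, another myeloid marker, just missed in the other direction (0.68 ± 0.20, adjusted p = 0.0537), with overlapping arrays. Of the 19 myeloid markers 15 had a positive difference, with a median of 0.37. In limma 0 of 19 myeloid and 0 of 9 B and plasma cell markers passed, with 4 and 0 at an unadjusted p under 0.05. At the level of single signals, CD79B was 1230 on tibolone replicate 3 and at most 98.2 on the other tibolone arrays. IRF7 and BST2, interferon-induced factors of antiviral defence, rose by 1.24 ± 0.30 and 0.57 ± 0.14, and ISG20, an interferon-induced exonuclease, fell by 1.13 ± 0.26. They were the members that passed among 23 interferon response genes, beside 7.35% of all genes. Of these 23, 21 had a positive difference and 2 a negative one, and the median was 0.33.

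No cell cycle gene passed. Of 31 tested in limma, 0 passed and 2 had an unadjusted p under 0.05, 26 had a negative difference and the median was -0.27. MKI67, the proliferation antigen, read 284, 103, 206 and 127 with tibolone and 235, 369, 365 and 63.1 with CEE+MPA (-0.34 ± 0.43, adjusted p = 0.657). The smallest p in the list belonged to DLGAP5, a spindle protein, which was higher with tibolone (0.64 ± 0.19, adjusted p = 0.0603). The list mean was -0.98 on CEE+MPA replicate 4 and 0.56 to 0.87 on the other CEE+MPA arrays, against -0.54 to 0.75 with tibolone. The median moved from -0.85 with the high spike-in set alone to 0.08 without the 3 arrays with high skeletal muscle signal, so its sign was not stable.

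Of 26 genes of the endoplasmic reticulum and secretory pathway 3 passed, all lower, 8 had a positive difference and the median was -0.18. SSR2 and SSR3, subunits of the translocon-associated complex of the endoplasmic reticulum, averaged 3610 ± 197 against 6460 ± 1120 and 3590 ± 491 against 5870 ± 1010, and TRAM1 3090 ± 102 against 4700 ± 540. Their differences were -0.82, -0.70 and -0.60, the groups did not overlap, and they were the 3 that passed. All 3 probe sets of SSR2 passed, and 1 of 3 of TRAM1. Of 23 genes of cholesterol and fatty acid synthesis 2 passed, both lower, a share near the 7.35% of all genes. Among the 23, 14 had a positive difference and 9 a negative one, and the median was 0.175. ACSS2, which makes cytosolic acetyl-CoA from acetate, read 880, 627, 494 and 477 with tibolone and 1350, 1040, 1420 and 1870 with CEE+MPA (-1.19 ± 0.22, adjusted p = 0.0114). PMVK, of the mevalonate pathway, fell by 0.48 ± 0.13. Of 20 immediate early and stress genes JUND was the 1 that passed (1.16 ± 0.25), beside 7.35% of all genes, with a list median of 0.75. MT2A, a metallothionein that binds zinc and copper, read 7240, 6270, 2260 and 17800 with tibolone and 21200, 19800, 21900 and 8870 with CEE+MPA, where replicate 4 of each group lay in the range of the other (-1.37 ± 0.49, adjusted p = 0.101). In limma 0 of the 6 tested members of the metallothionein list passed, with 3 at an unadjusted p under 0.05, 1 higher and 2 lower. The 1 higher was MTF1, a transcription factor and not itself a metallothionein (0.50 ± 0.19, adjusted p = 0.117). The other probe set of MTF1 passed, at 0.79 ± 0.17 (adjusted p = 0.0199).

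The genes with the smallest p were chosen after their values were seen. PON2, an intracellular lactonase with antioxidant activity, read 3940, 4060, 4910 and 3160 with tibolone and 1600, 1470, 1430 and 1300 with CEE+MPA (1.44 ± 0.14, adjusted p = 0.000664), and its other probe set gave 1.64 ± 0.17 at the same adjusted p. With means of 3560 in controls and 2240 with CEE, PON2 was low in the CEE+MPA group. PON2 was the named gene that passed with and without the 3 arrays with high skeletal muscle signal, at 1.32 ± 0.17 and 1.39 ± 0.17 without them (adjusted p = 0.029 for both). The other named gene past the threshold in that smaller design was FOXP2, a forkhead factor, which did not pass over all arrays (adjusted p = 0.337). PLPP3, a lipid phosphatase that degrades lysophosphatidic acid, averaged 6030 ± 1230 against 2560 ± 488 (1.23 ± 0.16, adjusted p = 0.00247). AKAP7, an anchoring protein of protein kinase A, averaged 849 ± 85.8 against 394 ± 27.3 (1.07 ± 0.13, adjusted p = 0.00186).

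Individual probe sets with very large rises were found for SPATA2 and ERICH3, also chosen after their values were seen. For SPATA2, a regulator of deubiquitination in TNF signalling, 1 of 3 probe sets read 1370, 1080, 2160 and 1510 with tibolone and 26.2, 11.3, 76.3 and 41.6 with CEE+MPA (4.91 ± 0.59, adjusted p = 0.00164). The other pair lay at 0.33 and 0.36 and did not pass, so the gene as a whole has no settled difference. ERICH3, the gene of a glutamate-rich protein, had probe sets at 3.41 ± 0.42 (adjusted p = 0.00186) and 1.39 ± 0.34 (adjusted p = 0.0303) and others at -0.08 and 0.06.

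Untreated and CEE animals place the 2 groups. The comparisons share arrays, so calls are given for each on its own. Against control, tibolone differed in 7 probe sets, all higher (0.0244% of 28716), among them those of GREB1 (2.14, adjusted p = 0.00163), ERICH3 (4.34) and SPATA2 (4.93), with the remaining 4 unnamed. CEE+MPA differed from control in 1819 (6.33%), of which 561 were higher (1.95%) and 1258 lower (4.38%). Among the 768 genes called between tibolone and CEE+MPA, the control mean was nearer to the tibolone mean in 697 (90.8%), against 68.6% of all tested genes, a description with no test. The CEE mean was nearer to tibolone in 37.5%, against 43.9% of all tested genes, and in 47.6% of the genes higher and 25.6% of the genes lower with tibolone.

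**Figure D4:**
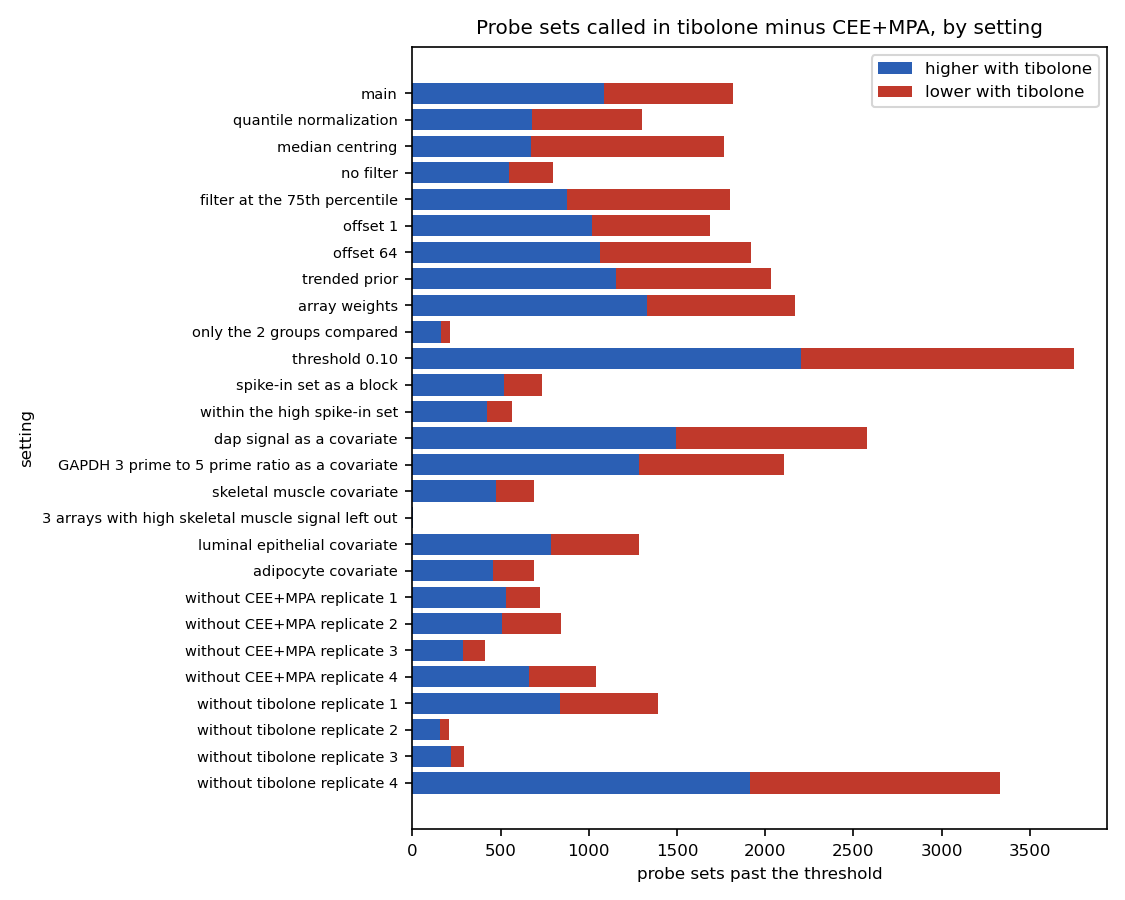
Bars give the number of probe sets past an adjusted p of 0.05 (0.10 in the bar so named) for tibolone against CEE+MPA under the analysis as reported and each alternative that counts probe sets, with those higher with tibolone in blue and those lower in red. The count was 1820 as reported, 3333 without tibolone replicate 4, 209 without tibolone replicate 2 and 5 without the 3 arrays with high skeletal muscle signal.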

How the data were processed

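Per the labels, biotin-labelled RNA from 16 mammary samples was put on rhesus macaque arrays made by Affymetrix. The deposited values were linear intensity (signal) per probe set, already scaled by the authors and not log transformed. GCOS and Affymetrix Expression Console come from the submitters' processing notes, while their algorithm and versions were not given in the sources at hand. Of 52865 probe sets, 25330 had a symbol in the annotation table, 361 of them several, which were not named as genes, and 27535 had none. The 99 Affymetrix controls were left out.

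Signals were transformed as log2(signal + 16), which understates fold changes of dim genes. All 16 arrays entered a single limma model holding the 4 group means, and each comparison was adjusted by Benjamini and Hochberg at 0.05 over all 28716 tested probe sets. Each animal gave 1 array, replicate numbers follow the order of deposit, and the number of arrays limits the precision. Genes named were the 15 largest rises and falls among those past the threshold, up to 4 members with the smallest p in each of 32 lists (2 where none passed) and a panel of 25 genes. Of 809 listed symbols 518 were tested. Of the genes tested, 140 reached the filter only through the tibolone arrays and 71 only through the CEE+MPA arrays, 11 and 4 of them called. The members and lists were chosen with earlier results of these data known, and other genes after their values were seen. Panel genes with no named probe set are not analysed here. The 27 alternatives changed scaling, filter, offset, variance model, samples, spike-in sets and tissue covariates. On simulated data with 28716 probe sets, 93 of 100 changes of log2 size 2 and 56 of 100 of size 1 were recovered, with 12 false calls. The simulated noise was drawn for each probe set on its own. It held no differences shared by many probe sets, such as those of muscle signal, so these figures do not carry over to the real arrays. Tests ran in limma 3.58.1 under R 4.3.3, and plots in matplotlib 3.10.9 under Python 3.11.15.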

Additional observations from a re-analysis of the deposited data

Results flagged for a closer look

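In 8 of 216 groups of 4 arrays (108 genes in both regimens), 1 array stood apart from the other 3, with a gap to its nearest neighbour, as a share of the group's range in log2 signal, above Dixon's critical value for 4 samples. Chance alone gives about 1 in 20. NPNT was 2090 on tibolone replicate 4 and 418 to 460 on the other tibolone arrays (0.942 of the range). STAT5B was 3320 on the same array and 1270 to 1460 on the others (0.856). FST was 585 on tibolone replicate 2 and 360 to 386 on the others (0.858), all of them above the CEE+MPA arrays. CD79B, a B cell receptor subunit, was 1230 on tibolone replicate 3 and 71.8 to 98.2 on the others (0.901), while its other probe set differed by 0.04 between the regimens. HSD17B2 was 371 on tibolone replicate 1 and 126 to 147 on the others (0.867). With CEE+MPA the array that stood apart was the lowest of its group. GMNN, a regulator of DNA replication licensing, was 289 on replicate 4 and 455 to 498 on the others (0.834). MT2A was 8870 on the same array and 19800 to 21900 on the others (0.891). JUND was 188 on replicate 1 and 271 to 277 on the others (0.941). Replicate 4 of each regimen accounted for 2 of the 8.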

How the results depend on the processing

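No paired analysis was possible because no animal received more than 1 regimen and replicate numbers only follow the order of deposit. All 84 described genes past the threshold kept their direction in the 27 alternatives, and 0 of them passed in every one. These genes were chosen by their difference on the same arrays, so the kept direction adds no support. Tibolone against CEE+MPA gave 1820 probe sets (1086 higher, 734 lower, 768 genes), and this count stayed within 1.5 times under both scalings, both offsets, the stricter filter, the trended prior, array weights and the dap, GAPDH and luminal covariates, although the number higher was 681 after quantile normalization and 674 after median centring. It was 799 with no filter (546 higher, 253 lower, 322 genes), 215 with only the 2 groups in the model (163, 52, 90 genes), 3750 at a threshold of 0.10 (2204, 1546, 1572 genes), 735 with spike-in set as a block (519, 216, 298 genes), 564 within the high spike-in set (425, 139, 237 genes), 690 with the skeletal muscle covariate (474, 216, 295 genes), 691 with the adipocyte covariate (457, 234, 285 genes) and 5 without the 3 arrays with high skeletal muscle signal (5, 0, 2 genes). The model with only the 2 groups, the high spike-in set and the last design rest on fewer arrays, and the threshold of 0.10 is a looser cut. The cause of the changes in count was not tested. With 1 array left out the count was 209 to 3333, with 159 to 1916 higher, 50 to 1417 lower and 83 to 1419 genes. CEE+MPA against control, 1819 as reported, was 984 with no filter, 3729 with array weights, 3714 at 0.10, 598 with the adipocyte covariate and 552 to 2316 without 1 array. Tibolone against control, 7 as reported, was 11 with array weights, 14 with the adipocyte covariate, 4 with the spike-in block, the dap or the luminal covariate, 2 within the high set, 1 without the 3 arrays and 4 to 10 without 1 array. Of the 768 genes, 763 kept their direction when the probe sets of a gene were averaged, so 5 turned, none of them among the 84. Among the described genes, signs turned for some that did not pass. CSN2 became 0.098 after quantile normalization, 0.122 without the 3 arrays and -0.181 to 0.005 without 1 array, JCHAIN 0.008 and S100A9 -0.036 without the 3 arrays, and WNT4 -0.776 to 0.178 without 1 array. For signals near the offset of 16, as of HSD3B2 and IGFBP1 with CEE+MPA, the size of the fold change depends on that offset.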

Other observations

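Gene families defined by their symbols, and chosen after values had been seen, add groups that the lists do not hold. Of 25 chemokines 5 were past the threshold (limma, adjusted p under 0.05), all higher with tibolone, beside 3.98% of all genes, while 6 had a negative difference and the median was 0.28. CCL11, which attracts eosinophils, read 293, 230, 146 and 167 with tibolone and 89.7, 61.2, 41.2 and 33.7 with CEE+MPA (1.65 ± 0.28, adjusted p = 0.00732), without overlap and with a control mean of 139. CCL2, which attracts monocytes, averaged 468 ± 77.2 against 198 ± 88.8 (1.24 ± 0.32, adjusted p = 0.0369). CCL19 and CCL27, which attract lymphocytes, rose by 1.82 ± 0.49 and 1.79 ± 0.49, the former with 2300 on tibolone replicate 3 and 557 to 874 on the other tibolone arrays. CXCL12 completes the 5. After quantile normalization 2 of the 25 passed, after median centring 4, and without the 3 arrays with high skeletal muscle signal 0 in limma. Of 8 kallikrein proteases 3 passed, KLK12, KLK10 and KLK8, at 2.62, 1.61 and 1.42, beside 3.98% of all genes called higher. Another 3 of the 8 had a negative difference, the lowest at -1.41. The same number passed under both scalings. Without the 3 arrays with high skeletal muscle signal 0 passed in limma, with 4 differences positive and 4 negative. The glycosyltransferase GALNT7, which starts mucin-type glycosylation, read 236, 793, 515 and 240 with tibolone and 102, 101, 123 and 67.2 with CEE+MPA (1.86 ± 0.36, adjusted p = 0.0148), while its relative GALNT12 fell by 1.18 ± 0.27 (adjusted p = 0.0238).

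Counts of mitochondrial genes called lower stand beside the 3.37% of all genes called lower. Of 62 mitochondrial ribosomal proteins 59 had a negative difference (median -0.28) and 6 passed, all lower. MRPL45 read 1150, 846, 751 and 1450 with tibolone and 2790, 1990, 2420 and 2180 with CEE+MPA (-1.18 ± 0.22, adjusted p = 0.013), and its mean of 1260 in controls and 1740 with CEE put the CEE+MPA group highest. MRPS18B fell by 0.99 ± 0.21. Of 57 respiratory chain and ATP synthase genes 3 passed, all lower, a share near that of all genes, among them ATP5F1C, a central subunit of ATP synthase, with 3730, 3380, 2790 and 3440 against 6290, 5420, 5920 and 5800 (-0.81 ± 0.14, adjusted p = 0.00764). The family median was -0.21. Among 35 cytoplasmic ribosomal proteins the median was -0.28 and limma called 0, while 17 had an unadjusted p under 0.05. That median was -0.06 after quantile normalization. The medians of the mitochondrial ribosomal and respiratory families were -0.25 and -0.12 after quantile normalization and -0.12 and -0.08 without the 3 arrays with high skeletal muscle signal, where 0 members passed in limma in a design with 2 tibolone arrays. Skeletal muscle and adipocyte signal differed between arrays, and their part in these families was not tested.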
